A study of Mus musculus with 45 samples.

Results

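To find what remained of the starting medium after a week of differentiation, the 6 libraries of day 7 were compared by the medium in which their ESCs had been maintained. Of the 45 libraries of the series, these were the 3 labelled 2iL EB d7, 2iL EpiSC d7 and 2iL Neural d7 and the 3 labelled SL EB d7, SL EpiSC d7 and SL Neural d7. All derive from wild-type male E14tg2a ESCs (129/Ola), a mouse line. 2iL is serum-free N2B27 medium with LIF, the GSK3 inhibitor CHIR99021 and the MEK inhibitor PD0325901, and SL is serum with LIF. From either medium, cells were moved to suspension culture in serum without LIF (the EB course), to adherent culture in N2B27 with Fgf2 and ActivinA (EpiSC), or to adherent culture in N2B27 alone (Neural). Within a course, the libraries of both origins were therefore in the same medium from day 0 on. The line had spent at most 3 passages in 2iL before differentiation. The 6 libraries held 13577463 to 37563672 counted reads, in which 3 counts correspond to 0.0799 to 0.221 CPM (counts scaled to a common library size with TMM factors).

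Each origin and course has 1 library at day 7, so the 3 courses stood as replicates, the comparison was paired by course, and its p-values measure the disagreement of the courses about the origin. All cells come from 1 line, and nothing states that the libraries were separate cultures beyond their course. In bulk RNA, fewer cells of a type and less RNA per cell cannot be told apart.

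The course labels were checked against marker lists. Nanog and Lefty1 were highest in the EpiSC libraries, at 197 and 215 CPM from 2iL and 206 and 291 CPM from SL. From 2iL and SL, the summed naive list (294 and 327 CPM) and formative and primed epiblast list (917 and 960 CPM) were also highest there. The general pluripotency list, however, summed higher in EB than in EpiSC, at 1169 against 1104 CPM from 2iL and 1499 against 1156 CPM from SL. No marker is given here for the EB label. The summed level of 21 neuronal genes was highest in the Neural libraries, at 1032 CPM from 2iL and 571 CPM from SL, against 106 to 422 CPM elsewhere. Both Neural libraries also carried 3485 and 4510 CPM of a list of 20 endoderm genes, much of it the extraembryonic endoderm receptor gene Cubn (1500 and 1737 CPM), so markers of another cell type were abundant in them. In the EpiSC libraries from 2iL and SL, the endoderm list summed to 1039 and 1129 CPM. The list of mesenchyme and fibroblast matrix genes summed to 1803 and 1657 CPM there, the highest of each origin.

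As background, imprinted genes are expressed from 1 parental allele, and the choice is carried by DNA methylation that is set in the germ line and kept in the embryo by methyltransferases and by factors such as Zfp57. ESCs in 2iL are known to hold little DNA methylation and ESCs in SL much more. When 2iL is withdrawn, most of the genome is methylated again, but a germline imprint that was lost is not set again outside the germ line. The Xlr3 and Xlr4 genes of the X chromosome are lymphocyte and germ cell genes that exist in several near-identical copies.

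Promoter windows of 4 imprinted genes called below are shown here because each holds a motif of Zfp57 and CpG, the base pair step that carries DNA methylation. They run from 250 bases before to 50 bases after the transcription start in RefSeq on GRCm38, 5′ to 3′ on the gene's strand. The capitals mark TGCCGC or, on the other strand, GCGGCA, the motif that Zfp57 is known to bind when methylated. The search was added after the values of these genes had been seen.
Plagl1, chr10:13090582-13090881, positive strand: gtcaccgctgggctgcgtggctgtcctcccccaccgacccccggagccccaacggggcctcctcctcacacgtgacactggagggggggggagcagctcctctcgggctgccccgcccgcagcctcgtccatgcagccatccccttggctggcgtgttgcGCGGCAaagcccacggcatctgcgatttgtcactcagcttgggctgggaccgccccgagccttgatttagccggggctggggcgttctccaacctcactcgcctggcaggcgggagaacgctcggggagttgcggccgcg
Grb10, chr11:12037371-12037670, negative strand: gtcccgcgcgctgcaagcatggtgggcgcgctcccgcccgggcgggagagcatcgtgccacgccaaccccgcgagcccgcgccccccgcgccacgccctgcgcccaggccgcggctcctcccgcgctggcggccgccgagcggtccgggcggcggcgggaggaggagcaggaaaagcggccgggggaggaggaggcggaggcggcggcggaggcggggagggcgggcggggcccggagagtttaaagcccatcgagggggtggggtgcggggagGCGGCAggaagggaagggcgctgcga
Nnat, chr2:157559828-157560127, positive strand: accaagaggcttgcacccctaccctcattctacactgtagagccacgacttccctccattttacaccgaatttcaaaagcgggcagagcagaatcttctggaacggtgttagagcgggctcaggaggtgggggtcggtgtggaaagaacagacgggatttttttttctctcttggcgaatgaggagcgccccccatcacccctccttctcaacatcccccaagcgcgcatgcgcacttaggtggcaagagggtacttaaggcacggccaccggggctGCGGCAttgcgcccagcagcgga
Mcts2, chr2:152686898-152687197, positive strand: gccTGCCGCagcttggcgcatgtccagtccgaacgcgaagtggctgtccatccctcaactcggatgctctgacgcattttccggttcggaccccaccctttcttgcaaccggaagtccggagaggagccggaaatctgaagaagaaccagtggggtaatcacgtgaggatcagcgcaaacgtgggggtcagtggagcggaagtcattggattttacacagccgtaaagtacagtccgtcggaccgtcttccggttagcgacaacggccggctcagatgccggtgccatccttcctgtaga
These windows hold 26, 45, 17 and 25 CpG, against a median of 21 over the genes tested, which Nnat is below, and of 7 over all 32851 windows. Each holds the motif once, as do 11.6% of all windows and 21.3% of the 11748 genes with a window among those tested. A second window of Grb10 holds 9 CpG and no motif. Of the other called genes of the imprinted list, Meg3 holds it in one of its windows, Rian, Zrsr1 and Mkrn3 do not hold it, and Impact had no window. Nap1l5, a called imprinted gene that was not on the list, holds it 2 times in a window with 17 CpG. Of the imprinted genes on the list used here, 29 had a window and 11 of them held the motif. The 6 Xlr3 and Xlr4 genes had windows with 5 to 8 CpG and no such letters.

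Across the genome, little of the starting medium could be told at day 7. In the paired edgeR fit of the 6 libraries, 0 of 14594 genes (0.0%) passed an adjusted p of 0.05. The lowest adjusted p was 0.214, for Grb10 and Xlr3b, and 677 genes (4.64%) had an unadjusted p under 0.05, of which 289 were higher from 2iL and 388 from SL. DESeq2 called 60 genes on the same libraries, 32 of them higher from 2iL. The spread in this fit rests on 2 residual degrees of freedom, so it was also estimated over all days. A fit of the 40 paired libraries of days 1 to 7, with a term for each day and course and a medium difference for each day, called 37 of 16459 genes at day 7 (0.225%), 23 higher from 2iL and 14 higher from SL. Over all genes tested in the 6 libraries, 25.8% had the same direction in all 3 courses. The 37 called genes all had it, but a test with the courses as replicates selects for this, so it lends no separate support. They are described below with their adjusted p from this fit of days, and 8 of them were still called when the EpiSC course was left out, 28 without EB and 5 without Neural. Only 7 were called when days 3, 5 and 7 alone gave the spread, namely Xlr3a, Xlr3b, Xlr3c, Grb10, Plagl1, Meg3 and Mir1906-1. The fit of days shares its spread over all days and counts libraries of a course on successive days as independent. The median SD of the log2 ratio between courses was 0.324 at day 7 and 0.209 at day 1. The adjusted p of this fit may therefore be too small for day 7.

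The difference between origins shrank from day to day. In the fit of days, 3574 genes (21.7%) were called on day 1. The next samplings, days 1.5 and 2, gave 3137 (19.1%) and 2309 (14%), followed by 1198 (7.28%) on day 2.5 and 512 (3.11%) on day 3. On day 5, when EB and Neural alone had both origins, 51 genes (0.31%) were left. The courses also disagreed more on day 7 than on day 1. The median SD of the log2 ratio between courses was 0.209 at day 1 and 0.324 at day 7, while the median absolute size of the mean log2 ratio fell from 0.262 to 0.151. For 1172 genes (7.12%) the medium difference at day 7 itself differed from that at day 1.

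**Figure D1:**
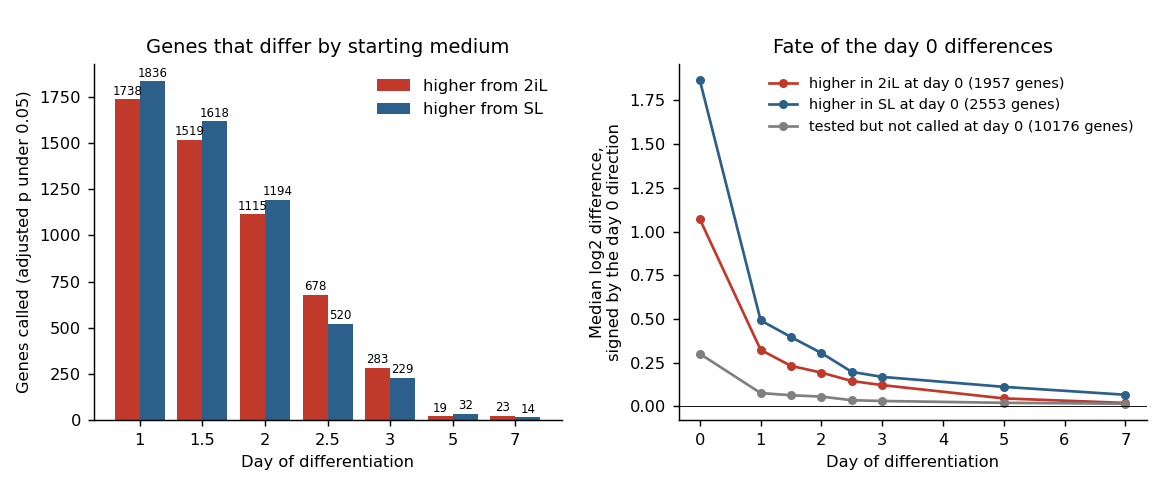
Left, genes called at an adjusted p under 0.05 in the fit of days 1 to 7, by day and by the origin in which they were higher. Right, median log2 difference between origins (y axis) by day (x axis), signed so that the day 0 direction is positive, for genes higher in 2iL at day 0, higher in SL at day 0, or not called at day 0. The bars fall from 1738 and 1836 genes at day 1 to 23 and 14 at day 7, and the medians fall towards 0.

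At the start the cultures were far apart. Day 0 has 3 libraries of ESCs in 2iL but 1 in SL, so that only the former give the spread. There, 4599 of 14948 genes (30.8%) were called, 2011 higher in 2iL and 2588 higher in SL. Of these, 4510 were tested in the fit of days. Genes higher in 2iL at day 0 started from a median log2 difference of 1.07, which was 0.32 on day 1, 0.12 on day 3 and 0.02 on the last day. Those higher in SL went from 1.86 through 0.49 and 0.17 to 0.07 on the same days. At day 7, 2584 of the 4510 (57.3%) still had the direction of day 0, as did 53.4% of the 10176 genes that were tested but not called at day 0. Genes called on both days in the same direction numbered 17, which is 0.377% of the 4510 and 17 of the 37. A further 4 were called on both days in opposite directions, namely Marcks, Abcb1a, Zfp534 and Gm13150. The other 16 of the 37 were not called at day 0 or, in the case of Tnc, not tested there.

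**Figure D2:**
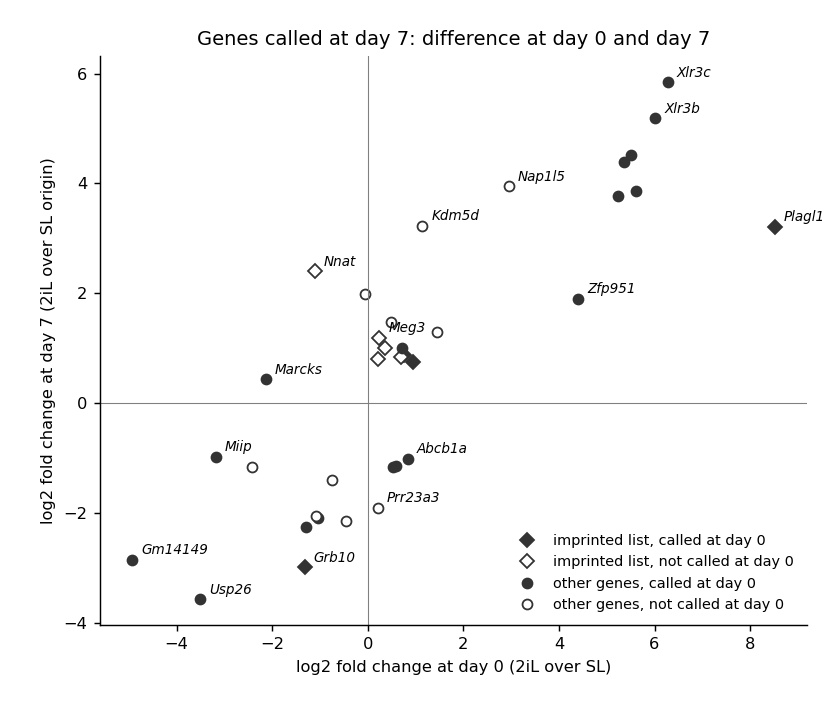
Log2 fold change of 2iL over SL at day 0 (x axis) and at day 7 in the fit of days (y axis) for 36 of the 37 genes called at day 7. Diamonds are genes on the imprinted list and filled symbols were called at day 0. The Xlr3 and Xlr4 genes and Plagl1 lie far out in the upper right, Nnat lies at the upper left, and Grb10 is lower on both days.

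Among the 37 called genes, the widest differences were those of Xlr3c, Xlr3b, Xlr4b and Xlr3a. Xlr3b (ENSMUSG00000073125, chrX:73192207-73202930) was at 14.9, 89.3 and 66.0 CPM in EB, EpiSC and Neural from 2iL, and at 0.662, 1.09 and 2.80 CPM from SL. All 2iL-origin libraries were above all SL-origin libraries, and the EB library was the lowest of its origin in both. The log2 difference was 5.19 ± 0.32 (SE), which is 36.5-fold (adjusted p = 1.16e-07). The log2 differences of Xlr3c and Xlr3a were 5.85 ± 0.38 and 4.38 ± 0.43 (adjusted p = 1.16e-07 and 4.54e-05). Those of Xlr4a, Xlr4b and Xlr4c were between 3.77 and 4.52 (adjusted p = 0.00829, 0.00115 and 0.0127). Because the copies can share reads, their sums are the safer values. Summed over the 3 copies, Xlr3 had 1259, 5062 and 2723 reads from 2iL and 40, 56 and 136 from SL, a ratio in CPM of 17.0 in EB, 84.5 in EpiSC and 16.5 in Neural. Summed Xlr4 had 123, 630 and 624 reads from 2iL and 18, 3 and 44 from SL.

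The Xlr difference was present from the start. Summed Xlr3 was at 203, 275 and 219 CPM in the day 0 libraries in 2iL and at 3.94 CPM in SL. In the EpiSC course from 2iL it was at 293 CPM at day 3 and 247 CPM at day 7, and in the EB course it went from 95.9 CPM at day 3 to 32.2 CPM at day 7. The Xlr3b difference at day 7 was not distinguishable from that at day 1 (log2 difference of -0.53, adjusted p = 0.552). Xlr4 copies differed less at day 7, by 3.86 against 6.33 at day 1 for Xlr4a and 3.77 against 5.99 for Xlr4c. Neither was among the genes called for a day 7 minus day 1 difference. In EB, summed Xlr4 went from 62.7 CPM at day 1 to 3.14 CPM at day 7 from 2iL, and was at 0.85 CPM on both days from SL. No other gene on the X chromosome was called higher from 2iL, and Usp26, a testis deubiquitinase gene, was lower, with 8, 2 and 0 reads from 2iL and 40, 21 and 16 from SL.

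In the fit of days, the imprinted list held the largest share of genes past the adjusted threshold of the 28 lists. The lists were chosen with earlier results of these data known, so this rank lends no separate support. Of 33 imprinted genes tested in the 6 libraries, 14 were higher and 3 lower from 2iL at an unadjusted p under 0.05, together 51.5% of the list against 4.64% of all genes. By this unadjusted share the list did not rank first, since the 2-cell-like list had 87.5% and the formative and primed epiblast list 58.3%. The median absolute log2 difference was 0.79, against 0.14 over all genes, and the median signed difference was 0.52. In 12 of the 33 all 2iL-origin libraries lay above all SL-origin libraries (2.23% of all genes did), and in 2 they lay below (1.86%). The fit of days called 9 of the 34 members it tested, 8 higher and 1 lower. No member of the other 27 lists was called in either edgeR fit. DESeq2 called 12 imprinted genes and 6 members of other lists in the 6 libraries, and without EB the fit of days called 19 imprinted genes and 14 others. By the allele known to be expressed, which was noted after the values were seen, 18 of 22 paternally expressed genes were higher from 2iL, 11 of them at an unadjusted p under 0.05, as against 4 of 8 maternally expressed genes, 3 of them at that p. Of 3 genes whose expressed allele varies, 1 was higher and 2 were lower, among them Grb10, the 1 member called lower. Over all genes, 49.6% were higher from 2iL. Some members overlap, as Sgce and Peg10 do, so they are not all separate loci.

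**Figure D3:**
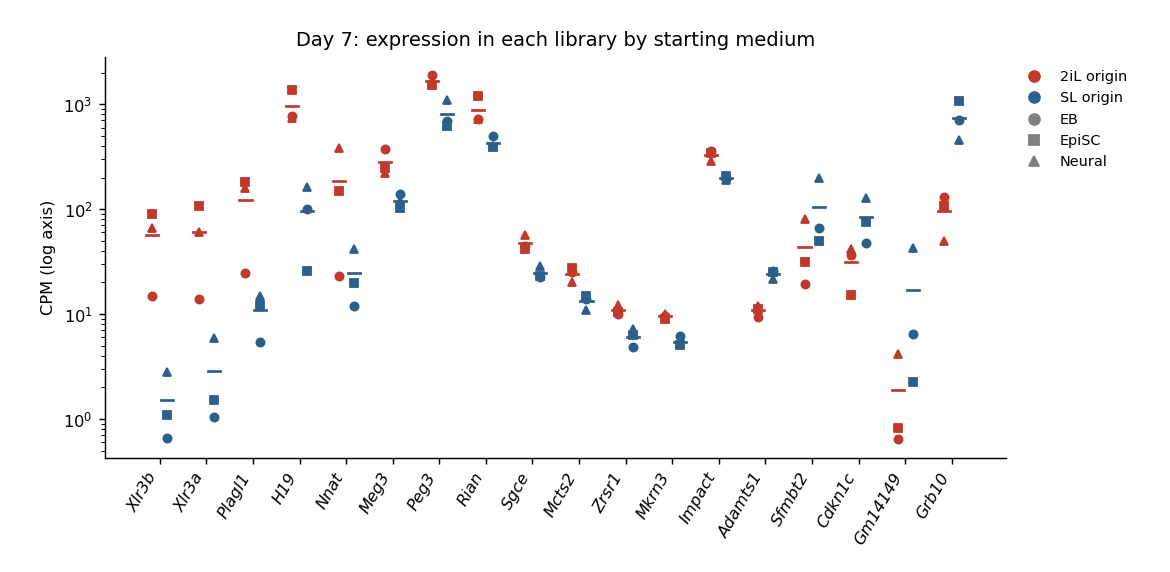
CPM on a log axis in each of the 6 libraries of day 7 for 18 genes, with 2iL origin in red, SL origin in blue, a symbol for each course and a bar for the mean of 3. The genes on the left are higher from 2iL and those on the right from SL. The origins overlap across courses for Nnat, Sfmbt2 and Gm14149 and for no other gene plotted.

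Among the called genes of the imprinted list, Plagl1 and Grb10 differed most and in opposite directions. Plagl1 encodes a zinc finger factor that restrains proliferation and is expressed from the paternal allele. It was at 24.8, 182 and 160 CPM in EB, EpiSC and Neural from 2iL and at 5.39, 12.3 and 15.0 CPM from SL, so that the lowest 2iL-origin library exceeded the highest SL-origin one. The log2 difference was 3.21 ± 0.33, or 9.25-fold (adjusted p = 6.92e-05). Grb10 encodes an adaptor that dampens insulin receptor signalling and is maternally expressed in most tissues and paternally in neurons. It was at 130, 106 and 49.6 CPM from 2iL and at 711, 1063 and 452 CPM from SL. All 3 courses were lower from 2iL, by 2.98 ± 0.29 on the log2 scale, which is 7.92-fold (adjusted p = 4.54e-05).

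Both genes reached day 7 by different routes. Plagl1 was at 406, 269 and 286 CPM in 2iL at day 0 and at 0.841 CPM in SL, dropped to between 5.59 and 9.49 CPM in the 2iL courses at day 2, and was back at 282 CPM in Neural at day 5. From SL it was at most 1.88 CPM up to day 2.5 and was at 25.5 CPM in Neural at day 5. Within each course, 2iL origin was the higher on every day with both libraries. Grb10 was at 74.1 to 119 CPM in 2iL and 245 CPM in SL at day 0 (log2 difference of -1.32, adjusted p = 0.00284). In EpiSC from SL it went from 172 CPM at day 1 to 1063 CPM at day 7, and from 2iL it was at 118 CPM at day 1, 378 CPM at day 3 and 106 CPM at day 7. Its medium difference was larger at day 7 than at day 1 by 2.17 on the log2 scale, downwards from 2iL (adjusted p = 0.00263).

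**Figure D4:**
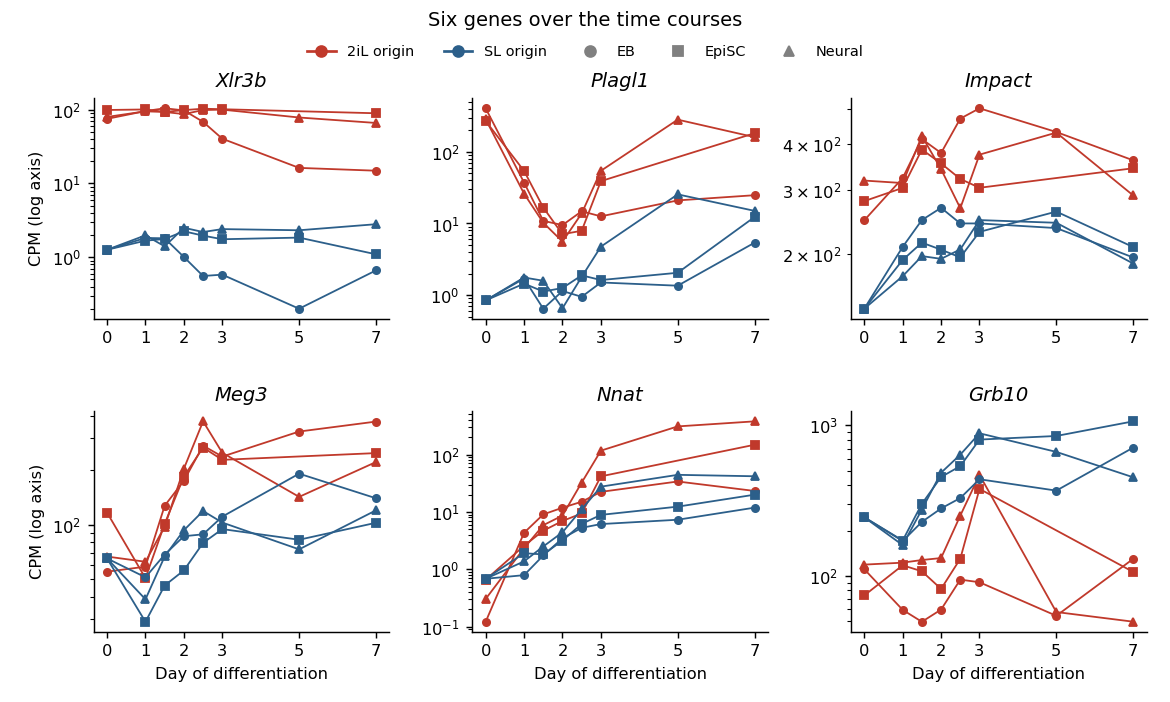
CPM on a log axis against day of differentiation for Xlr3b, Plagl1, Impact, Meg3, Nnat and Grb10, with 2iL origin in red and SL origin in blue and a symbol for each course. Day 5 of EpiSC from 2iL has no point, and the single SL library of day 0 starts all 3 blue lines. Xlr3b, Plagl1 and Impact are apart from day 0 on, while Meg3 and Nnat start together and separate later.

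Meg3 and Rian, maternally expressed RNAs of the Dlk1-Dio3 domain on chromosome 12, were higher from 2iL. Meg3 (ENSMUSG00000021268, chr12:109541001-109571726), a long non-coding RNA, was at 372, 249 and 222 CPM from 2iL and 140, 102 and 120 CPM from SL, with no overlap (log2 difference of 1.19 ± 0.14, adjusted p = 0.000389). Mir1906-1, which is annotated inside Meg3 on the same strand and whose reads may be those of Meg3, differed by 1.48 ± 0.22 (adjusted p = 0.00438). Rian, the host of small nucleolar RNAs further along the domain, was at 725, 1211 and 717 CPM from 2iL and at 496, 391 and 398 CPM from SL (1.01 ± 0.17, adjusted p = 0.0159). Gm26945, which overlaps Rian on the same strand, differed by 1.29 ± 0.23 (adjusted p = 0.0216). Mirg, a microRNA host and the third maternally expressed RNA of the domain on the list, was at 40.2, 97.9 and 71.0 CPM from 2iL and 44.1, 33.7 and 39.8 CPM from SL, so that EB had the opposite order, and it was not called (0.75 ± 0.23, adjusted p = 0.264). The paternally expressed partner Dlk1 was low, at 2.13 to 9.78 CPM from 2iL and 2.45 to 14.5 CPM from SL, and overlapped (adjusted p = 0.431). Neither Meg3 nor Rian was called at day 0 (adjusted p = 0.643 and 0.561), and Meg3 differed by 0.55 at day 1 and 1.68 at day 2.5.

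Several paternally expressed genes were higher from 2iL. Nnat encodes a small membrane protein of developing neurons. It was at 23.2, 148 and 379 CPM from 2iL and at 11.9, 20.0 and 41.8 CPM from SL, higher from 2iL within each course although the ranges overlap across courses (log2 difference of 2.40 ± 0.35, adjusted p = 0.00373). Nnat was under 1 CPM in all day 0 libraries. The summed levels of neuronal genes were also higher from 2iL in EpiSC (422 against 266 CPM) and in Neural (1032 against 571 CPM) but not in EB (106 against 133 CPM), and their part in the Nnat difference was not tested.

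Mcts2, a retrogene that lies in the H13 gene on the same strand and can share its reads, was at 25.1, 27.3 and 20.1 CPM from 2iL and 13.8, 14.9 and 10.9 CPM from SL. Its log2 ratio was 0.86, 0.87 and 0.87 in the 3 courses (0.87 ± 0.11 in the fit of days, adjusted p = 0.000897). H13 itself went the other way, at 27.7, 31.8 and 44.2 CPM against 58.2, 52.1 and 72.1 CPM (adjusted p = 0.0642). Impact (chr18:12955852-12992950), an inhibitor of the kinase Gcn2, was at 361, 343 and 289 CPM from 2iL and at 196, 209 and 188 CPM from SL (0.74 ± 0.12, adjusted p = 0.00842). Mcts2 and Impact were already higher in 2iL at day 0, by 0.75 and 0.95 (adjusted p = 0.0157 and 0.00785), and their day 7 difference was within 0.04 of that at day 1. Zrsr1 and Mkrn3 were higher by 0.84 ± 0.16 and 0.81 ± 0.16 (adjusted p = 0.0262 and 0.0491) without overlap between origins. Nap1l5, a further imprinted gene that was not on the list, had 12, 44 and 68 reads from 2iL and 0, 1 and 6 from SL (adjusted p = 0.00115).

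Other imprinted genes differed in every course without passing the adjusted threshold in either edgeR fit. Of those described next, DESeq2 called H19, Peg3, Sgce, Cdkn1c and Sfmbt2. H19, a maternally expressed long non-coding RNA, was at 780, 1354 and 746 CPM from 2iL and 100, 25.9 and 162 CPM from SL, without overlap. Its log2 difference of 3.53 ± 1.02 had an adjusted p of 0.23 in the edgeR fit of days and 0.781 in that of the 6 libraries. H19 was lower in 2iL at day 0 (0.506 to 2.76 CPM against 15.6 CPM). Igf2, the paternally expressed growth factor gene next to H19, was at 902, 66.1 and 234 CPM from 2iL and at 386, 320 and 510 CPM from SL, higher from 2iL in EB and lower in EpiSC and Neural. Peg3 was at 1883, 1534 and 1578 CPM against 691, 617 and 1108 CPM (adjusted p = 0.0869), and Sgce at 44.4, 42.1 and 56.9 CPM against 22.4, 23.2 and 28.7 CPM (adjusted p = 0.311). In the other direction, the cell cycle inhibitor gene Cdkn1c was at 36.3, 15.1 and 41.8 CPM from 2iL and at 47.6, 76.0 and 128 CPM from SL (adjusted p = 0.213). Sfmbt2 was at 19.3, 31.4 and 79.7 CPM against 66.3, 49.3 and 198 CPM (adjusted p = 0.0552). Imprinted genes without such a pattern included Zdbf2, at 111, 218 and 104 CPM against 104, 212 and 102 CPM, and Gnas, at 388 to 572 CPM against 386 to 440 CPM.

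The remaining called genes were mostly low. Marcks, a protein kinase C substrate of the membrane cytoskeleton, was at 186, 251 and 246 CPM from 2iL and 147, 181 and 172 CPM from SL (0.44 ± 0.08, adjusted p = 0.027), whereas at day 0 it was lower in 2iL by 2.13 (adjusted p = 0.00037). Tnc, the gene of the matrix protein tenascin C, was at 23.5, 548 and 32.6 CPM against 6.71, 353 and 10.8 CPM (1.31 ± 0.21, adjusted p = 0.00842). Adamts1, a matrix protease gene, was at 9.38, 11.1 and 12.0 CPM from 2iL and 26.0, 25.2 and 21.5 CPM from SL. It was lower from 2iL by 1.17 on the log2 scale (SE 0.23, adjusted p = 0.0413), without overlap between origins. Gm14149, a long non-coding RNA, was at 0.639, 0.828 and 4.21 CPM against 6.48, 2.24 and 42.5 CPM (adjusted p = 0.00842). Miip, an inhibitor of cell migration, was lower from 2iL by 1.97-fold (adjusted p = 0.0221) and had been lower at day 0 by 3.18 on the log2 scale. Kdm5d, a demethylase gene of the Y chromosome, had 44, 31 and 19 reads from 2iL and 1, 1 and 5 from SL (adjusted p = 0.0262), while all Y-linked genes together were at 188 to 247 CPM from 2iL and 185 to 221 CPM from SL. Low genes called higher from SL included Gm11127 (lower from 2iL by 2.05 on the log2 scale, adjusted p = 0.0399), Myo15b (2.84 CPM at most, adjusted p = 0.0262) and the acetyltransferase gene Naa11 (2.15 CPM at most, adjusted p = 0.0262). Zfp575, Tinagl1 and Sgce belong to the genes with the smallest unadjusted p in the 6 libraries (0.000684, 0.000422 and 0.000288) and were not called in the fit of days.

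The courses shared little else. Over the 14594 genes, the log2 ratios of EB and EpiSC correlated with r = 0.018, those of EB and Neural with r = 0.143 and those of EpiSC and Neural with r = 0.37, across genes, which are not independent replicates. Among genes with at least 10 CPM in the higher library, 621 (6.45%) differed by more than 2-fold in EB, 244 (2.55%) in EpiSC and 107 (1.11%) in Neural, each 1 library against 1 with no replicate.

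In EB, genes of the endoderm were far lower from 2iL and mesoderm genes higher. The median log2 ratio of 19 endoderm genes was -2.85, and their list summed to 1008 CPM from 2iL and 4535 CPM from SL. Afp, the fetal serum protein gene, was at 20.1 against 590 CPM, the lipoprotein gene Apob at 43.1 against 1455 CPM and the transferrin gene Trf at 1.51 against 61.3 CPM. The apolipoprotein genes Apoa1 and Apoc2 were at 0.869 against 47.6 CPM and at 0.562 against 22.9 CPM. Conversely, Hand1, a regulator of lateral and cardiac mesoderm, was at 349 CPM from 2iL and 17.3 CPM from SL, the summed cardiac list was at 609 against 102 CPM, and the endothelial receptor gene Kdr was at 134 against 28.6 CPM. Hox genes, which give axial position, summed to 96.2 against 17.2 CPM, with Hoxd1 at 20.2 against 1.47 CPM. None of these genes was called over the courses in either edgeR fit, and DESeq2 called Apoe of the endoderm list, lower from 2iL. Endoderm genes had a median ratio of 0.19 in EpiSC and -0.32 in Neural, where Afp was at 16.5 against 55.4 CPM and Apob at 33.9 against 138 CPM. Cardiac genes had medians of 0.06 and -0.21 in those courses. The Hox sums were higher from 2iL in all courses, at 115 against 73.9 CPM in EpiSC and 86.7 against 63.5 CPM in Neural.

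In EpiSC and Neural, neural genes were higher from 2iL. The median log2 ratio of 14 neural progenitor genes was 1.02 in EpiSC and 0.71 in Neural but -1.65 in EB, and that of 21 neuronal genes 1.10, 0.77 and -0.16. Dcx, a microtubule protein gene of young neurons, was at 42.2 against 2.76 CPM in EpiSC and at 119 against 57.5 CPM in Neural, and at 0.434 against 1.18 CPM in EB. None of the 35 tested genes of these lists was called in either edgeR fit or by DESeq2, and 2 neuronal genes, 9.52% of the list against 4.64% of all genes, had an unadjusted p under 0.05. Without EB, the fit of days called 5 neuronal and 3 progenitor genes, all higher from 2iL.

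**Figure D5:**
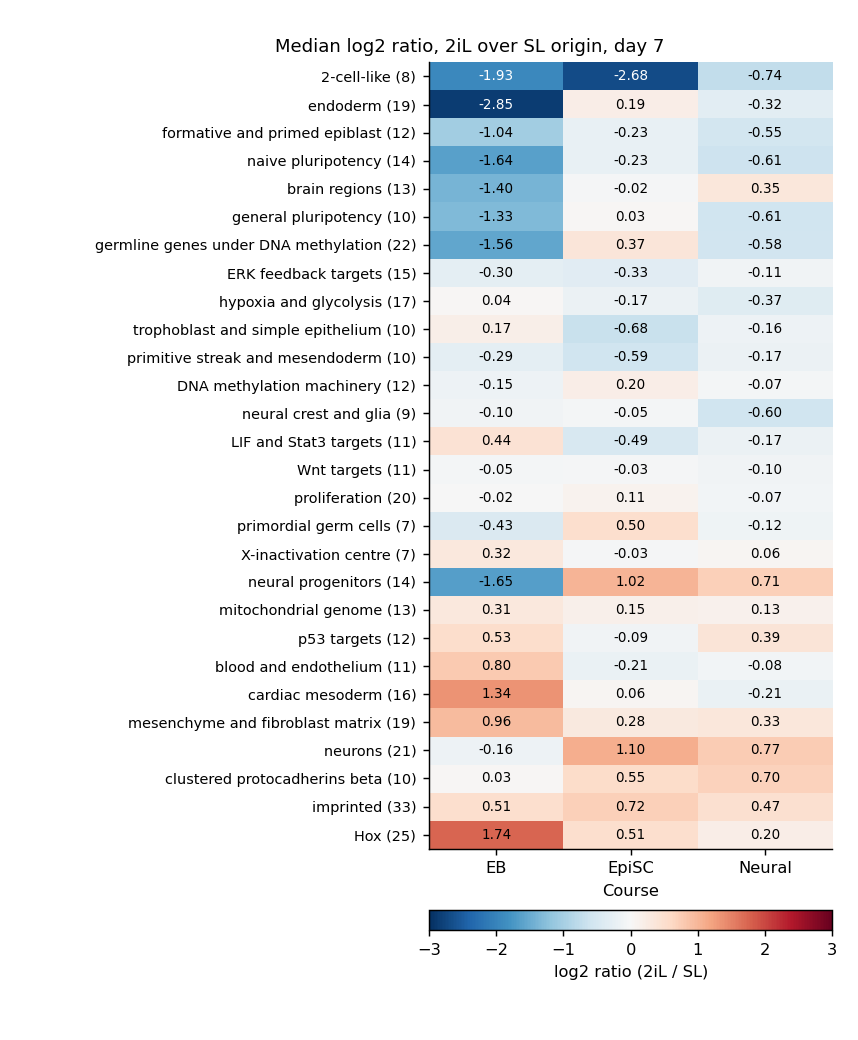
Median log2 ratio of 2iL over SL origin at day 7 in each course (columns) for the tested members of the 28 gene lists (rows, number of genes in brackets), from a single library of each origin and with a pseudocount of 0.1 CPM. The EB column ranges from -2.85 for endoderm to 1.74 for Hox, and the imprinted list is above 0.4 in every course.

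Pluripotency lists had medians below 0 at day 7, with no member past adjustment in either edgeR fit. Of 14 naive genes, 7 had lower values from 2iL and 0 higher ones at an unadjusted p under 0.05, which is 50% against 4.64% of all genes, with a median log2 difference of -0.68, and the median was -1.64 in EB, -0.23 in EpiSC and -0.61 in Neural. Esrrb was at 4.39, 20.4 and 10.5 CPM from 2iL and 22.5, 24.2 and 21.0 CPM from SL. At the same p, 7 of 12 formative and primed epiblast genes had lower values, among them Fgf5 at 10.0, 23.3 and 2.67 CPM against 33.4, 27.5 and 6.46 CPM. Of 10 general pluripotency genes, 3 did, but 6 had higher values from 2iL in EpiSC, where the median was 0.03. Pou5f1, also on the general list, was lower from 2iL in every course, at 73.7, 164 and 54.5 CPM against 130, 216 and 96.7 CPM, and was called by DESeq2. At day 0 the order was another one for part of the list, since Tfcp2l1 and Nr5a2 were higher in 2iL then by 1.66 and 1.25. Genes of the ERK feedback (15 tested, 4 lower), of DNA methylation (12 tested, 0 at that p) and of proliferation (20 tested, 0 at that p) had median differences of -0.35, -0.09 and 0.01.

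The 2-cell-like list had the lowest median. Zscan4 genes mark the rare ESCs that resemble the 2-cell embryo, and they exist in near-identical copies, so their counts were summed. Summed Zscan4 was at 2.81, 5.07 and 48.5 CPM from 2iL and 14.9, 32.7 and 79.9 CPM from SL, which is 5.30, 6.46 and 1.65 times higher from SL. Of 8 genes of the list tested, 7 (87.5%, against 4.64% of all genes) were lower from 2iL at an unadjusted p under 0.05. The median log2 difference was -2.14, but 0 passed adjustment in either edgeR fit, while DESeq2 called Zscan4c, Zscan4d and Zscan4f. On earlier days the courses went apart, since EpiSC on day 2.5 had 1462 CPM of summed Zscan4 from SL against 64.0 CPM from 2iL, while EB on day 3 had the opposite order, with 52.2 CPM from SL and 406 CPM from 2iL.

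The X chromosome as a whole did not stand apart. The median log2 difference of 532 X-linked genes was 0.02, and it was 0.05, 0.08 and -0.01 in EB, EpiSC and Neural, while the medians of the autosomes ranged from -0.04 to 0.05. Xist, the RNA that coats the inactive X, was at 0.358, 0.292 and 2.37 CPM from 2iL and at 1.09, 0.313 and 1.36 CPM from SL, levels that overlapped (log2 difference of -0.29, unadjusted p = 0.645). Its antisense Tsix was at 0.639, 1.07 and 1.07 CPM against 0.614, 0.521 and 1.58 CPM. Ftx was at 7.41 to 10.6 CPM against 8.29 to 9.45 CPM, Jpx at 0.585 to 1.15 CPM against 0.431 to 1.41 CPM, and Rlim, the activator of Xist, at 322 to 411 CPM against 294 to 376 CPM. Tsx was at or below 0.439 CPM in all 6 libraries.

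The genes with the highest ratio in EB and EpiSC were predicted genes that lie side by side on chromosome 9 or, for Gm10800, on chromosome 2, and whose copies may share reads. Gm10719, Gm17535, Gm11168, Gm10718, Gm10721 and Gm10800 together were at 854, 847 and 77.1 CPM from 2iL and at 2.65, 1.25 and 8.90 CPM from SL. They were no steady mark of the origin, since the sum went from 8423 CPM at day 3 to 77.1 CPM at day 7 in Neural from 2iL and was at 497 CPM in EpiSC from SL at day 3. Gm10718 was at -0.06 at day 0 on the log2 scale (adjusted p = 0.971) and was not called at day 7 in the fit of days (adjusted p = 0.244). The lowest ratios in EpiSC, besides Grb10, were those of Gm10036 (1.41 against 21.4 CPM) and of Gm21312 and Gm21293 (2.24 against 19.8 CPM and 2.39 against 21.8 CPM). In Neural they were those of Igfbp1, which encodes a binding protein of insulin-like growth factors (1.18 against 16.9 CPM), and Wdr31 (9.18 against 40.2 CPM), besides Gm14149 and Grb10.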

How the data were processed

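RNA was depleted of ribosomal RNA and sequenced from strand-specific libraries. Per the labels and methods, the authors trimmed reads with TrimGalore, aligned them with TopHat2 to GRCm38 and used featureCounts for strand-specific counting over genes. The deposited values used here are raw counts per gene, 35372 genes a library, of which 34599 were found in the GENCODE annotation of GRCm38 and 435 were transfer RNA rows without a symbol. Depth at day 7 was 13577463 to 37563672 counts, and the floor of 3 counts covers counting error only.

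Counts of the 6 libraries of day 7 were tested with edgeR 4.0.16 in R 4.3.3 (TMM factors, filterByExpr, quasi-likelihood F test, Benjamini-Hochberg adjustment, threshold 0.05) with course and medium as terms. The second fit took the 40 libraries of days 1 to 7 with 13 residual degrees of freedom. The EpiSC library of day 5 from SL had no partner and was not used. Fold changes and SE come from the fit of days unless stated. Log2 ratios per course used a pseudocount of 0.1 CPM.

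The pairing by course comes from the labels. The deviations of same-course libraries from their origin's mean correlated at 0.49 (EB), 0.586 (EpiSC) and 0.829 (Neural) over 14594 genes.

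In simulated counts on 14313 genes, the fit of 6 libraries recovered 36% of genes changed by 1 on the log2 scale and 90% of those changed by 2, and 8.57% of 175 calls were false. The fit of days, on 16210 genes, recovered 72% and 92%, with 6.28% of 191 calls false. The simulated libraries were independent, with a single dispersion per gene for all days. The real courses were sampled serially and disagreed more at day 7 than at day 1, so these rates need not hold for the genes called at day 7. Nor need they hold for the real edgeR fit of 6 libraries, which called 0 genes. There, Grb10 had a log2 difference of -3.00 and an adjusted p of 0.214.

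The members and lists were chosen with earlier results of these data known. Genes named are those of smallest p or largest fold with the same sign in all courses, members called or most different in each list, genes called at day 0 and day 7 with the largest day 0 difference, the 4 highest and lowest ratios per course, and X-inactivation genes. Others, among them H13, Dlk1 and the predicted genes, were added after their values were seen. Alternatives were DESeq2 1.42.0, upper-quartile factors, other filters on low counts, no block, another pseudocount and leaving out each course.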

Additional observations from a re-analysis of the deposited data

Results flagged for a closer look

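In the edgeR interaction test of the fit of days, the medium difference at day 7 differed from that at day 1 for 1172 genes (adjusted p under 0.05), of which the 12 given here are on the imprinted list, called at day 7 or among the smallest p of the 6 libraries. The following values are the day 7 minus the day 1 difference of 2iL minus SL origin, on the log2 scale. Among imprinted genes it was -2.17 for Grb10, -1.91 for Dlk1, 1.76 for Sfmbt2 and 0.692 for Gnas. Among the other genes named it was -1.5 for Abcb1a, -1.92 for F2, the prothrombin gene, -1.51 for Gm13150, -1.41 for Zfp534, -2.35 for Myo15b, -2.12 for Prr23a3, 0.877 for Marcks and 1.59 for Tinagl1. Of the 37 genes called at day 7, 8 had such a difference and 15 were called on all 7 days of the fit.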

How the results depend on the processing

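At day 7, the 0 genes called in the 6 libraries became 60 with DESeq2, 3 without a filter on low counts and 37 with the spread of days 1 to 7, and 5 (without Neural) to 19 (without EB) when a course was left out. Without the block for course, 0 genes were called and 149 had an unadjusted p under 0.05, against 677 with it, 1677 with the spread of days 1 to 7, and 444 to 1659 with a course left out. Genes called on both day 0 and day 7 in the same direction (0) became 29, 3 and 17 under DESeq2, no filter and the spread of days, and 0 to 11 with a course left out. Imprinted genes called (0) became 12, 1 and 9, and 0 to 5 with a course left out, and members of all lists (0) became 18, 1 and 9, and 0 to 11. Imprinted genes lower from 2iL at an unadjusted p under 0.05 (3) became 5 with the spread of days and 3 to 7 with a course left out.

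In the fit of days, leaving out a course gave 1076 to 3651 genes at day 1, 973 to 3387 at day 1.5, 559 to 2782 at day 2, 134 to 2001 at day 2.5, 69 to 1112 at day 3, 0 to 241 at day 5 and 8 to 217 at day 7, the highest each time without EB, and 82 to 1584 for day 7 minus day 1. Days 3, 5 and 7 alone, a choice made after seeing the data, gave 8 at day 7. Of the imprinted genes, 6 uncalled log2 differences changed sign. With a course left out, they ranged from -0.0744 (without EB) to 0.268 for Gnas, -1.71 to 0.0381 (without EpiSC) for Igf2, -0.725 to 0.145 (without EB) for Jade1, -0.204 (without Neural) to 0.853 for Magel2 and -1.005 to 0.0988 (without Neural) for Zim1. Without the block, Magel2 was at -0.00497 and Phlda2 at 0.0622. The causes of these changes were not tested. With 1 library per origin and course, a difference particular to 1 course could not be tested.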

Other observations

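The summed level of the 37 listed imprinted genes was 10141, 9603 and 7640 CPM in EB, EpiSC and Neural from 2iL and 5834, 5719 and 5877 CPM from SL. An unadjusted p under 0.05 was held by 4.64% of all genes. At that p, matrix genes of mesenchyme and fibroblasts had 5 members higher and 1 lower from 2iL, of 19 tested (31.6%). The p53 targets had 3 higher of 12 (25%). None of them passed adjustment in either edgeR fit, and DESeq2 called Prrx1, a mesenchymal homeobox gene, at 11.5, 41.3 and 2.13 CPM from 2iL and 4.68, 5.21 and 0.718 CPM from SL.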
